A study of Mus musculus with 3 samples.

Results

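Runx1 occupancy was examined at 10 genes of the AP-1 and immediate early class: Fos, Fosb, Fosl1, Fosl2, Jun, Junb, Jund, Egr1, Atf3 and Nr4a1. They were taken by gene symbol from the authors' annotated region tables, out of 21887 protein-coding genes of the RefSeq annotation on chromosomes 1 to 19, X and Y. These genes received 1 of 451 regions in replicate 1, 2 of 1641 in replicate 2 and 18 of 13194 in replicate 3. The study measured chromatin bound by Runx1, a transcription factor of blood and myeloid cells, by chromatin immunoprecipitation and sequencing (ChIP-seq). All libraries belong to 1 group, the spinal cord of male C57BL/6J mice aged 8 to 10 weeks, with 3 replicates and no comparison group. For a replicate, a rabbit polyclonal Runx1 antibody (9 µg) was added to some 10 µg of chromatin that came from 10 cords, after cells freed with a Dounce homogenizer had been fixed in pools of 5 cords and their chromatin cut with micrococcal nuclease. No sorting of cell types is described. Replicate 3 carries the antibody's name in its tissue label and was placed in the group by its title. Whether animals were shared between replicates is not stated, so the spread between replicates may be technical.

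AP-1 is a dimeric transcription factor typically assembled from a Jun protein and a Fos or ATF protein, which grip DNA through a basic region and pair through a leucine zipper. Fos, Fosb, Jun, Junb, Egr1, Atf3 and Nr4a1 are classed as immediate early genes, which are transcribed soon after a stimulus without new protein synthesis, through factors such as serum response factor and CREB that are already present. Fosl1 and Fosl2 typically follow later, and Jund is expressed in most cells without stimulation. In spinal cord, Fos is widely used as a marker of neurons activated by painful stimuli. The libraries hold no RNA measurement, so a region at a gene says nothing of whether that gene was expressed.

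A Runx1 region was assigned to 8 of the 10 genes in at least 1 replicate, and to Fos and Jun alone in at least 2. Fos had a region in all 3 replicates and Jun in replicates 2 and 3. Fosb, Fosl2, Junb, Jund, Egr1 and Nr4a1 had regions in replicate 3 only, and Fosl1 and Atf3 had none. By replicate, 1 of 10 genes had a region in replicate 1, where 1.51% of all coding genes did. The counts were 2 of 10 in replicate 2 (background 5.17%) and 8 of 10 in replicate 3 (background 31.5%). A region in at least 2 replicates was found for 5.43% of coding genes, in any replicate for 31.9% and in all 3 for 0.836%. The genes were chosen with results of these data known and there is 1 group, so no test was made of these counts.

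The strength of a region is given here as the authors' fold, the fragment pileup at its strongest summit over the local background. These folds are the region's own values within 1 list and do not compare replicates. Pileup and background were solved from the deposited fold and p, and each fold is followed by a 95% interval from the exact Poisson interval of its pileup, which covers counting error only. The lists differed far more in length than in an indirect estimate of relative depth, which was 1, 1.07 and 1.52 in replicates 1, 2 and 3. That estimate rests on the lowest local background, and neither read totals nor the control library are known, so it may not measure sequencing depth. Median fold was 4.86, 4.01 and 3.81 in replicates 1, 2 and 3. The weakest regions called had folds of 3.04, 2.72 and 2.05. Defining markers of microglia had regions for 0, 1 and 2 of 9 genes in replicates 1, 2 and 3, with Cx3cr1, P2ry12, Tmem119 and Csf1r at 0. Oligodendrocyte markers had 0, 7 and 9 of 9, neuronal markers 1, 2 and 7 of 8 and astrocyte markers 0, 0 and 3 of 6. None of the 5 endothelial or 5 monocyte and neutrophil markers had a region. The part of cell composition in the results below was not tested.

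**Figure D1:**
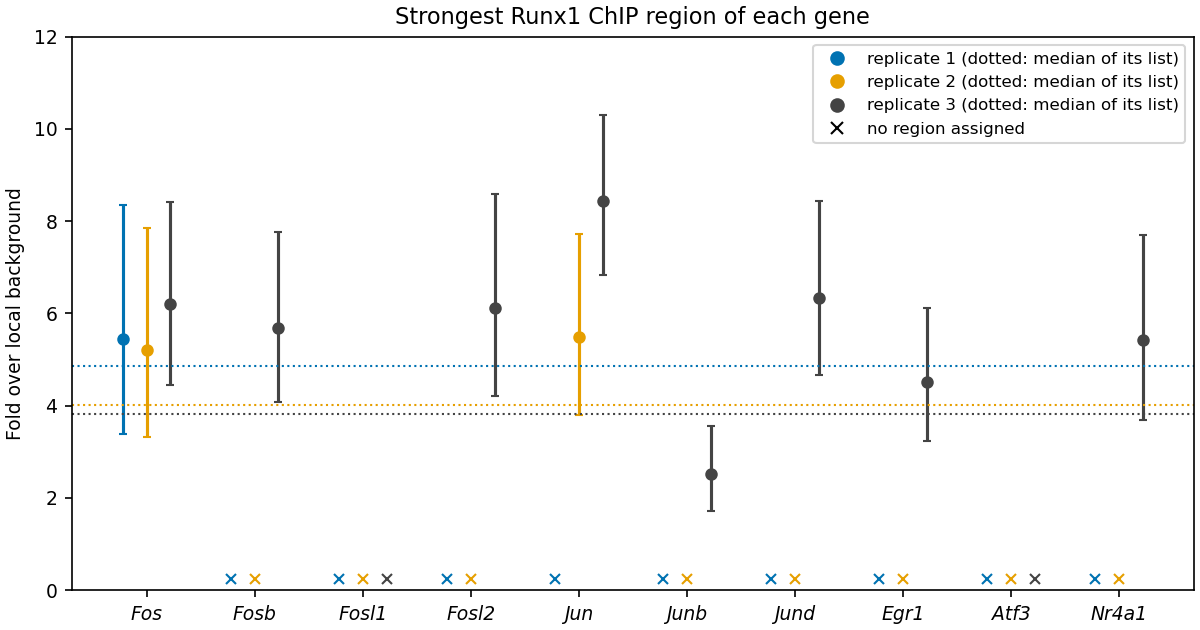
The vertical axis gives the fold over local background at the strongest region of each of the 10 genes (horizontal axis), by replicate, with 95% counting intervals. Dotted lines mark each list's median fold and crosses mark genes with no assigned region. Jun in replicate 3 had the highest value (8.44), Junb the lowest (2.52), and Fos alone had a point in all 3 replicates.

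Fos encodes the founding Fos subunit of AP-1, and its recurring region did not lie at its promoter. In replicate 1 the Fos region (Ensembl gene ENSMUSG00000021250) spanned chr12:85486850-85487110 in GRCm38, with its summit 13.1 kb downstream of the start of the longest Fos transcript and a class of distal intergenic. Its fold was 5.44 (interval 3.39 to 8.35), from a pileup of 19 fragments over a background of 2.67. In replicate 2 the region spanned chr12:85486754-85487137 and contained the whole replicate 1 region, with a fold of 5.22 (interval 3.32 to 7.85) and a pileup of 21. The summits of the 2 replicates lay 100 bp apart. These folds stood at the 66.3 percentile of the replicate 1 list and the 87.2 percentile of the replicate 2 list.

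Replicate 3 called this downstream stretch as 3 separate regions. The middle one, chr12:85486902-85487614, overlapped 209 bp of the replicate 1 region (80.1% of it) and 236 bp of the replicate 2 region (61.5%). A weaker summit of it lay 16 bp from the replicate 1 summit, and its strongest summit 392 bp away. It had a pileup of 25 and a fold of 2.88, at the 9.71 percentile of its list. Over the lowest background of the replicate, in place of the local one, it stood at the 54.7 percentile. The flanking regions were chr12:85485761-85486385, with a fold of 5.13, and chr12:85487836-85488115, with a fold of 2.76. Neither flanking region overlapped a region of the other replicates. The nearest RefSeq gene to all of these regions was Fos, whose end lay 8.49 to 10.6 kb away. The next nearest was the long non-coding RNA gene Gm38543, 28.6 to 30.7 kb away.

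Replicate 3 alone also called the Fos promoter. A region at chr12:85473150-85474067 covered the start site, with its summit 168 bp upstream, a pileup of 39 and a fold of 6.21 (interval 4.46 to 8.43), the strongest of the gene. A second lay 1.70 kb upstream of the start at chr12:85471743-85472485, with a fold of 5.84. Another, chr12:85455081-85455766, lay 18.6 kb upstream. It was distal intergenic in the authors' table but inside the RefSeq gene Gm38543. Its pileup of 74 was the highest of the Fos regions, over a local background of 16.0 that was also the highest, and its fold was 4.40 (interval 3.47 to 5.51). In all, 6 regions were assigned to Fos in replicate 3. Of the 6889 coding genes with a region there, 117 (1.70%) had as many or more, and 74.4% had 1.

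**Figure D2:**
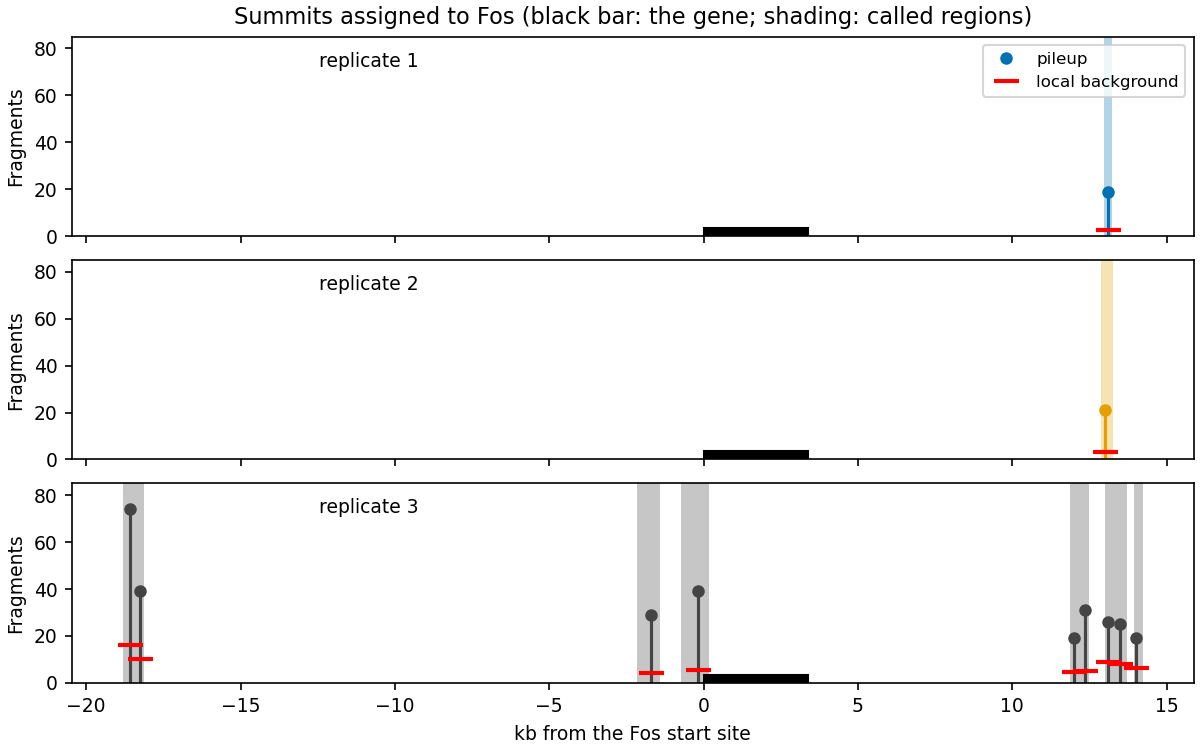
Summit pileup (points) and local background (red bars), in fragments, are plotted against distance in kb from the Fos start site, 1 panel per replicate. Shading marks called regions and the black bar the gene. The single regions of replicates 1 and 2, with pileups of 19 and 21, lie some 13 kb downstream, where replicate 3 has 3 regions, while replicate 3 also has regions at the promoter and upstream.

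Promoter windows (250 bases before to 50 after the start) of 8 of the 10 genes were taken from the RefSeq table of the same build (GRCm38.p6). Fosl1 had no entry, and Egr1 was not looked up, although its replicate 3 region ended 103 bp before its RefSeq gene start. Sequences are shown for the 4 of these 8 genes whose window was overlapped by a region. The windows hold only part of the regions at Fos, Fosb and Jun. The strongest summit of the upstream Fosb promoter region lay outside its window, 369 bp upstream of the start. So did the replicate 2 Jun summit, 403 bp upstream. The 250 bases before each start follow, 5′ to 3′ on the gene's strand. Capitals mark TGACG, a partial CRE site, in Fos, Fosb and Junb, and the AP-1-like site TGACATCA in Jun.
Fos, chr12:85473640-85473889, plus strand: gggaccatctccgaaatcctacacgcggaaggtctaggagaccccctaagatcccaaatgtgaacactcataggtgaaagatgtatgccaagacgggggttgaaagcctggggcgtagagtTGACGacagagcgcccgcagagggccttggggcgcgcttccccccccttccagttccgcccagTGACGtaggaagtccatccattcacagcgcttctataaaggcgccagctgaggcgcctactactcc
Jun, chr4:95052223-95052472, minus strand: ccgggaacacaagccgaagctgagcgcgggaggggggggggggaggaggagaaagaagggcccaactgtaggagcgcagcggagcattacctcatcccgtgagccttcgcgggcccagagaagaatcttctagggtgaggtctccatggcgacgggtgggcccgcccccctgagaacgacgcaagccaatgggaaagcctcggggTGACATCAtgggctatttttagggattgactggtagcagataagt
Fosb, chr7:19310046-19310295, minus strand: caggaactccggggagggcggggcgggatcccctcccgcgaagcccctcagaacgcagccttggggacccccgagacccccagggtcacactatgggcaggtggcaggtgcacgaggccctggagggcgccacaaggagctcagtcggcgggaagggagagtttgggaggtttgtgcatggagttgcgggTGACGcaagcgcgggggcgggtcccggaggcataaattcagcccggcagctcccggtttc
Junb, chr8:84978749-84978998, minus strand: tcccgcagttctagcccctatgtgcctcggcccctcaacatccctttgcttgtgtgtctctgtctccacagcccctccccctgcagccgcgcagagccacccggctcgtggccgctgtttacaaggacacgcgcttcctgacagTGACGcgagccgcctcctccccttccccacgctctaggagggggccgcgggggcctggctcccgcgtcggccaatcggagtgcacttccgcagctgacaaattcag
Regions of replicate 3 covered all 250 of these bases at Fos and Jun, 197 at Fosb and 190 at Junb, and the replicate 2 region covered all 250 at Jun.

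Both strands of the 300-base windows were searched. TGACG began 129 and 66 bases before the Fos start, 60 bases before the Fosb start and 106 bases before the Junb start, and 20.8% of all 32851 RefSeq windows of this length hold it. TGACATCA began 45 bases before the Jun start and is in 3.62% of windows. The full CRE TGACGTCA (1.79% of windows, and itself containing TGACG), the AP-1 site TGANTCA (7.81%) and the CArG box of serum response factor (1.63%) were in none of these 4 windows. The RUNX cores TGTGGT (16.8% of windows) and TGCGGT (6.45%) were also in none of the 4. Among all 8 windows, a RUNX core was in that of Fosl2 alone, as TGCGGT 32 bases after the start. The Nr4a1 window held TGACG at 4 places, 233, 213, 69 and 40 bases before the start on the opposite strand, and the nearest replicate 3 region lay 4692 bp away. That window's start, chr15:101266846, lies downstream of the longest transcript's start, from which the other Nr4a1 distances are given. Absence of these letters from a window says nothing of binding elsewhere in a region.

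Jun, the Jun subunit that pairs with Fos proteins, had the strongest and widest region of the group, and it lay on the promoter. In replicate 2 the region spanned chr4:95052060-95052862, with its summit 403 bp upstream of the start, a pileup of 31 and a fold of 5.49 (interval 3.79 to 7.73), at the 90.5 percentile of its list. In replicate 3 it spanned chr4:95050810-95053347, 2538 bp with 4 summits. The strongest summit lay 207 bp upstream of the start, with a pileup of 95 and a fold of 8.44 (interval 6.84 to 10.3), at the 97.6 percentile by fold and the 98.3 percentile by width. The replicate 3 region contained the replicate 2 region and ran on into the gene, where a summit 1174 bp downstream of the start had a fold of 4.17. Replicate 2 had a second region there, chr4:95050592-95051241, which the authors assigned to the antisense gene Junos. Its fold was 3.61. Replicate 1 had no region within 50 kb of Jun.

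The other Jun genes had regions of the promoter class in replicate 3 that differed widely in fold. Jund had a region at chr8:70698537-70699481 with a summit 14 bp from the start of the authors' transcript. Its pileup was 45 and its fold 6.34 (interval 4.66 to 8.44), at the 92.2 percentile. The RefSeq start of Jund used for the promoter table lies further upstream, and the region began 749 bp beyond that window. Junb, an immediate early gene whose protein can restrain Jun, had a region of 225 bp at chr8:84978714-84978938 with a fold of 2.52 (interval 1.72 to 3.56). That fold stood at the 1.05 percentile of the list, yet its pileup of 30 was close to the median of 31 over the 18 regions. The local background at Junb was 11.3 fragments, against a median of 5.55 over all replicate 3 regions. The intervals of Jund and Junb did not overlap on this scale. Over the lowest background of the replicate they did, at 11.1 (interval 8.20 to 14.8) for Jund and 7.51 (interval 5.15 to 10.6) for Junb. Beyond the Jund region, 2 replicate 3 regions with folds of 4.88 and 3.43 were assigned to the antisense gene Gm11175.

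The Fos relatives were split between genes with a promoter region and a gene with none. Fosb, whose protein accumulates on repeated stimulation, had 3 regions in replicate 3. One lay across the upstream promoter at chr7:19310099-19310602 with a fold of 4.73. The strongest, at chr7:19308375-19309011, lay 1.31 kb into the gene with a fold of 5.69 (interval 4.07 to 7.76). The remaining one, 10.1 kb upstream at chr7:19319879-19320296, fell in an exon of another annotated gene and had a fold of 3.90. Fosl2, which encodes the Fos-related protein Fra-2, had 1 region at chr5:32135163-32136072 with its summit 133 bp upstream of the authors' start and a fold of 6.11 (interval 4.21 to 8.60). The RefSeq start used for the promoter table lies further downstream, and the region ended 150 bp before that window. Fosl1, which encodes Fra-1, had no assigned region. The closest one in replicate 3, 1.46 kb beyond its RefSeq end, was assigned to the neighbouring gene Ccdc85b with a fold of 3.36.

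A second region near Fosl2 recurred in all 3 replicates but was assigned to another gene. It lay 1.98 to 2.06 kb upstream of the authors' Fosl2 start, at chr5:32133597-32133843 in replicate 1, chr5:32133417-32133782 in replicate 2 and chr5:32133651-32133893 in replicate 3. The authors assigned it to Gm10463. Its folds were 5.61 (interval 3.49 to 8.60), 4.18 (interval 2.49 to 6.64) and 3.10 (interval 1.93 to 4.76), from pileups of 19, 16 and 19. Over each replicate's lowest background in place of the local one, the values were 6.19, 4.63 and 4.85. The region was singled out after its values were seen.

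The zinc finger gene Egr1, the nuclear receptor gene Nr4a1 and the stress-induced gene Atf3 complete the group. Egr1 had a promoter region in replicate 3 at chr18:34860501-34861104, with its summit 214 bp upstream, a pileup of 39 and a fold of 4.51 (interval 3.24 to 6.13). A second Egr1 region lay 26.1 kb downstream of the start at chr18:34887185-34887922, with a fold of 4.44. Nr4a1 had a region at chr15:101271587-101271955 with a fold of 5.42 (interval 3.69 to 7.70). It was placed in the promoter class of a short transcript, and lay 17.4 kb downstream of the start of the longest one. A pair of weaker regions lay 7.88 and 7.21 kb upstream of that longer transcript, with folds of 3.68 and 3.05. Neither gene had a region in replicate 1 or 2. Atf3 had no assigned region, and the only region within 50 kb of it was a replicate 3 region 40.9 kb away, assigned to D730003I15Rik.

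**Figure D3:**
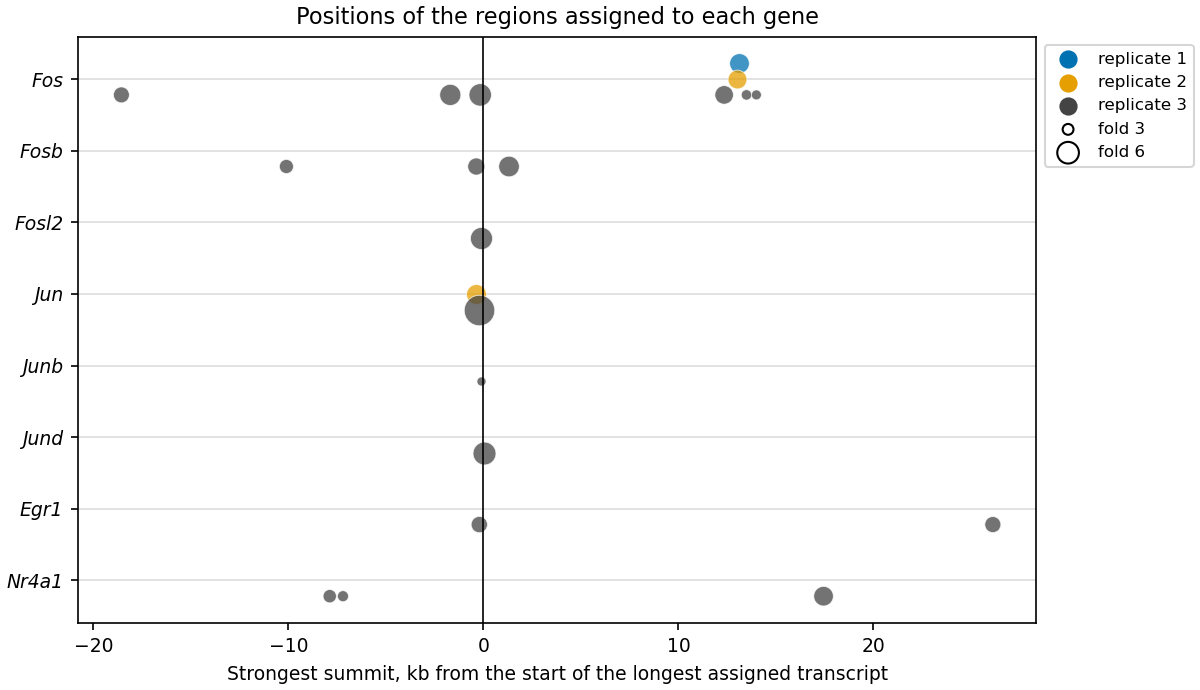
Each circle is a region, placed by the distance in kb of its strongest summit from the start of the longest transcript to which the authors assigned the gene's regions, with area growing with the square of fold. Colours give the replicate, and Fosl1 and Atf3, with no region, are left out. Most genes have a circle at or near 0. Fos, Fosb and Egr1 also have circles from 10 kb to 26 kb away, while those of Nr4a1 all lie from 7 kb to 17 kb away.

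The regions of these genes fell both at promoters and far from them. In replicate 3, 9 of 18 (50%) were in the promoter class within 1 kb of a start, against 62.6% of all regions. Another 7 of the 18 were distal intergenic, against 9.67% of all, and 4 of these 7 belonged to Fos. No region was intronic in class. The 18 folds ranged from 2.52 to 8.44 with a median of 4.62, and 13 exceeded the list median of 3.81. A fold of 5 or more was reached by 8 of the 18, against 20.7% of all replicate 3 regions. Taking each gene's strongest region, the median fold was 5.90 over the 8 genes and 4.04 over all 6889 coding genes with a region. A strongest value tends to rise with the number of regions, which was not adjusted for. Fos, Fosb, Nr4a1 and Egr1 had 6, 3, 3 and 2 regions, and Fosl2, Jun, Junb and Jund had 1 each. Of the 6889 genes, 74.4% had 1.

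**Figure D4:**
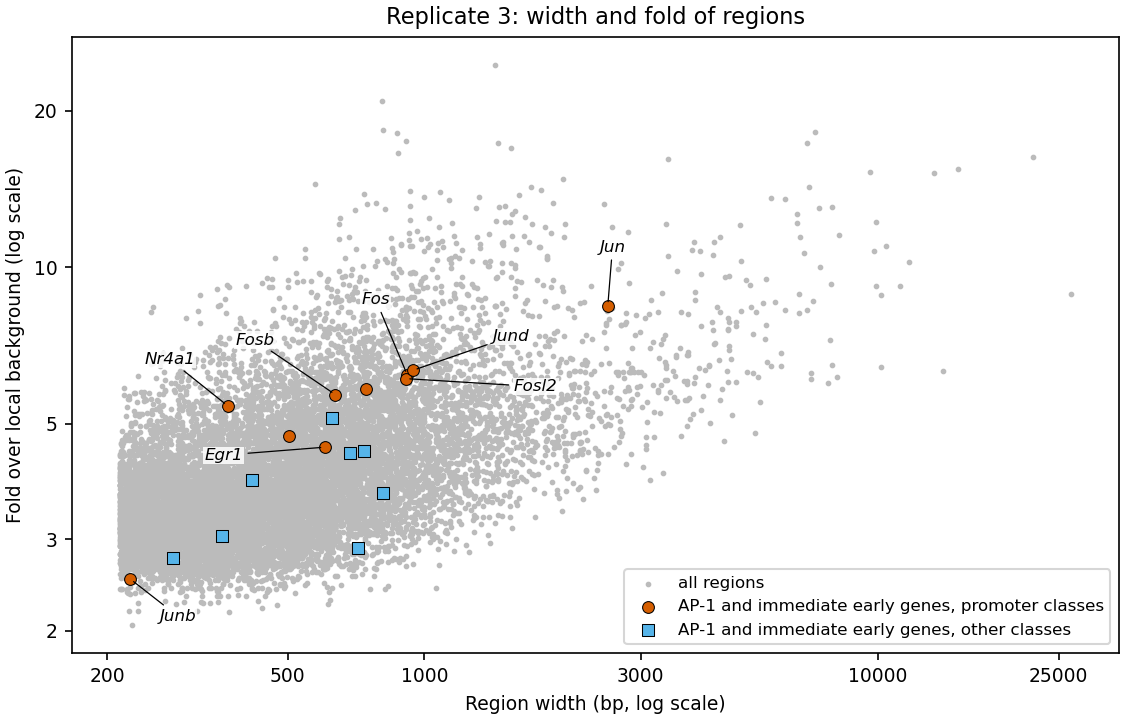
The horizontal axis gives the width of each replicate 3 region in bp and the vertical axis its fold over local background, both on log scales. Grey points are all 13194 regions and coloured points the 18 regions of these genes, with the strongest region of each gene named. Jun stands out by width (2538 bp), and Junb lies near the lower left corner.

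That a replicate 3 region was missing from the other lists was common at these folds. Among the 1046 replicate 3 regions within 10% of the fold of the Fos promoter region, 26.9% overlapped a replicate 2 region and 6.88% a replicate 1 region. For Jund the shares were 27.7% and 7.53%, for Fosl2 26.4% and 6.87%, and for Fosb 21.1% and 6.13%. They fell to 9.63% and 2.40% at the fold of Egr1 and to 3.95% and 0.359% at that of Junb. At the fold of Jun, 45.8% of 297 regions overlapped replicate 2 and 16.5% replicate 1, and the Jun region did so in replicate 2 only. Genes with regions in replicate 3 alone were therefore not shown to lack occupancy in replicates 1 and 2.

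The wider set of related genes was described from 3 lists. Among 30 bZIP relatives of AP-1, 3, 5 and 19 had a region in replicates 1, 2 and 3, against backgrounds of 1.51%, 5.17% and 31.5%. Among 42 other immediate early genes the counts were 3, 10 and 25, and among 37 genes that signal to AP-1 or the serum response element 0, 1 and 20. As shares, replicate 3 gave 63.3%, 59.5% and 54.1% for the 3 lists. In at least 2 replicates the counts were 6, 11 and 1, or 20.0%, 26.2% and 2.70%, against 5.43% of coding genes. The signalling list was therefore above the background share in replicate 3 and not in the count over at least 2 replicates.

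Of the bZIP relatives, only Atf4, the effector of the integrated stress response, had a region in all 3 replicates. Its promoter regions overlapped each other, with folds of 7.03, 5.20 and 6.14 in replicates 1, 2 and 3. Nfe2l2, the regulator of oxidative stress genes, had promoter regions with folds of 5.48 and 6.33 in replicates 2 and 3. Its relative Nfe2l1 had 5.64 and 5.75 in replicates 1 and 3. Bach2, a repressor that competes at AP-1 sites, had an intronic region shared by replicates 2 and 3, with folds of 4.14 and 5.86. Of the other immediate early genes, the circadian regulator Bhlhe40 had regions in all 3 replicates. Their strongest folds were 7.56, 5.70 and 8.64. In replicates 2 and 3, the strongest fold was 6.52 and 9.98 for the clock gene Per1. For the small GTPase gene Rhob it was 5.29 and 9.61, and for the kinase gene Sgk1 3.84 and 6.84. Of the signalling genes, Mapk8, which encodes the Jun kinase JNK1, had overlapping promoter regions in replicates 2 and 3 with folds of 3.49 and 4.21. Ppp3ca, Map2k7 and Mapk7 had regions in replicate 3 only, with folds of 6.84, 6.65 and 5.93.

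**Figure D5:**
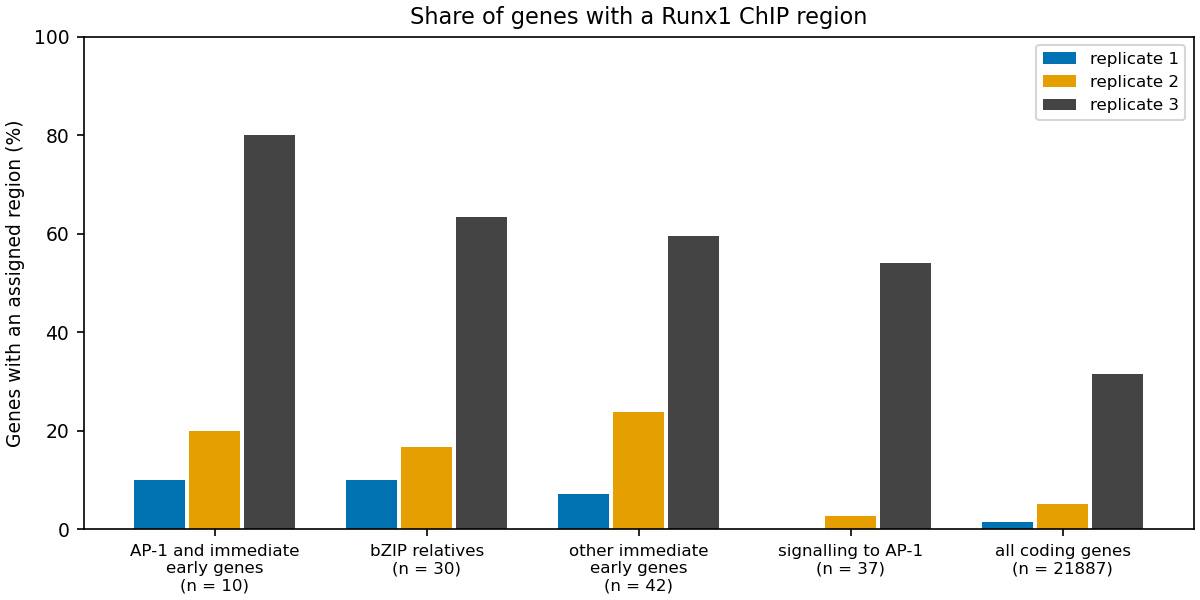
Bars give the percentage of genes with an assigned region in each replicate (vertical axis), for the 10 genes, the 3 lists of related genes and all 21887 coding genes. All 4 lists stand above the 31.5% of coding genes in replicate 3, and the signalling list has no bar in replicate 1.

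By the strongest fold in each replicate, the coding genes most like Fos among the 182 others with a region in all 3 replicates were Ndufa4, Ppp2r3d and Phip. Likeness was the sum over the 3 replicates of absolute log2 differences in fold, which was 0.21, 0.29 and 0.33. Ndufa4 had folds of 4.96, 5.20 and 5.92, beside 5.44, 5.22 and 6.21 for Fos. The Fos values come from different sites, the distal region in replicates 1 and 2 and the promoter in replicate 3. The replicate 3 region that overlapped the distal one had a fold of 2.88.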

How the data were processed

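The data are Runx1 ChIP-seq region lists of 3 spinal cord replicates. Build GRCm38 and the tools Bowtie2, FastQC, MACS2 2.1.2, Picard 2.18.26, SAMtools 1.9 and Trimmomatic 0.38 are listed in the submitters' processing notes. Their parameters, filters and control library: not given in the sources used here. For every summit, the authors' deposited lists hold −log10 q, −log10 p, the fold (a ratio of pileup to local background) and a score, and each replicate was called separately. The lowest −log10 q was 2.00 to 2.01. The deposited tables also give a class, a gene and a distance in bp for each region. Starts count from 0 there and from 1 here.

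Regions with several summits took the fold of the strongest. Whole pileups and backgrounds were solved under a Poisson model, within 0.001 in −log10 p for 100% of summits, and recovered in 100% of 2000 simulated summits. Read totals are unknown. Relative depth is the lowest background over the narrowest region. Symbols were matched to RefSeq (98.8% to 99.7% of coding symbols). Overlap meant at least 1 bp.

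The genes and lists were chosen with earlier results of these data known, and no test was made. Named genes were all 10, up to 4 per related list with regions in the most replicates (ties by fold in replicate 3), and 3 genes most like Fos. Alternatives were a q limit of 1e-05, a fold limit of 5, gene bodies with 1 kb, promoter regions within 1 kb of a start only, 451 regions per list, stricter overlap and leaving out replicates. Calculations used scipy 1.17.1, pandas 2.3.3 and numpy 2.4.6, and figures matplotlib 3.10.9, under Python 3.11.15.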

Additional observations from a re-analysis of the deposited data

How the results depend on the processing

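Depth and list length limit these results, since replicate 3 held most regions. Genes with a region in at least 2 replicates (2, Fos and Jun) remained Fos and Jun at a q of 1e-05, at a fold of 5 and with 451 regions per list. Of all coding genes, 2.36%, 1.04% and 0.95% had regions in at least 2 replicates under these 3 settings. The count was 1 (Jun) by RefSeq gene body with 1 kb and 1 (Jun) with only promoter regions within 1 kb of a start, because the Fos regions of replicates 1 and 2 are distal. With only such promoter regions, the share of all coding genes was 4.58%. For gene bodies with 1 kb that share was not computed, so the count of 1 has no background beside it. Leaving out each replicate gave 1 to 2: Fos alone without replicate 2 or without replicate 3. Genes with a region in any replicate (8) ranged from 2 to 8 when a replicate was left out, with 2 (Fos and Jun) without replicate 3. Shares of all coding genes were not computed with a replicate left out, so neither set of counts has a background. Taken singly, replicates 1, 2 and 3 had regions at 1.51%, 5.17% and 31.5% of coding genes. The drop without replicate 3 was therefore not shown to be particular to these genes. With 451 regions per list, 2 of the genes had a region in any replicate, as did 3.3% of all coding genes. Regions in replicates 1, 2 and 3 (1, 2 and 18) were 0, 1 and 9 with only promoter regions within 1 kb. Replicate 3 had 8 at a fold of 5 and 1 with 451 regions per list.

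The 3 regions of replicates 1 and 2 all overlapped replicate 3 by 1 bp, as did 94.7% of all replicate 1 and 92.1% of all replicate 2 regions. With 50% of both regions 0 did (32.6% and 33.7% of all), and by strongest summits within 200 bp 1 did (Jun; 68.5% and 51.1% of all). At a fold of 5, the bZIP relatives had 2 and 9 genes in replicates 2 and 3, the other immediate early genes 4 and 7, and the signalling genes 0 and 7. Of all coding genes, 0.882% and 8.50% had such a region, and the replicate 3 shares of the lists were 30.0%, 16.7% and 18.9%. With 451 regions per list they had 2 and 1, 4 and 3, and 0 and 0, beside 1.49% and 1.52% of coding genes. The signalling list was then not above the background share in any replicate. At a q of 1e-05 in replicate 2, where 2.08% of coding genes had a region, the other immediate early genes had 6 and the signalling genes 0.

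With folds recomputed over each replicate's lowest background, an alternative added after the values were seen, the same summits in replicate 3 had 23.3 (Jun), 11.1 (Jund), 9.69 (Fos and Egr1), 9.45 (Fosb) and 7.51 (Junb), and Jun had 8.72 in replicate 2. The local background enters the first measure and not the second. The other 52 of 86 alternative values moved by at most 1.5 times for counts, or stayed within the counting interval for folds. Fos had no value from promoter regions in replicates 1 and 2. No paired analysis was possible because there is 1 group.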

Other observations

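Npas4, an immediate early gene of neurons induced by calcium influx, had a region in replicates 1 and 2 and none in replicate 3. The region was distal intergenic, at chr19:5001860-5002239 in replicate 1 and chr19:5001870-5002239 in replicate 2, with summits 12028 and 12134 bp upstream of the assigned start. Its folds were 6.33 (interval 4.11 to 9.37) and 5.06 (interval 3.22 to 7.62), at the 81.2 and 84.6 percentiles, from pileups of 23 and 21. The nearest replicate 3 region lay 21837 bp away and was assigned to Slc29a2. Arc, which encodes a synaptic protein induced by neuronal activity, had overlapping promoter regions in replicates 2 and 3 with folds of 4.97 and 3.18. Dusp1, a phosphatase of stress kinases, had overlapping promoter regions with folds of 3.43 and 4.86, and its strongest replicate 3 region was classed as just downstream of the gene, with a fold of 6.40. These genes were singled out after their values were seen.

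The shared Fos region looked different when the local background was set aside. Its pileup at nearby summits was 19, 21 and 26 fragments in replicates 1, 2 and 3, and the local background was 2.67, 3.22 and 8.96. The authors' folds at those summits were 5.44, 5.22 and 2.71. Over each replicate's lowest background (2.23, 2.67 and 3.13 fragments) the values were 6.19 (interval 3.85 to 9.49), 6.00 (interval 3.82 to 9.02) and 6.54 (interval 4.36 to 9.47), which differ by less than their counting intervals. On that scale the replicate 3 region at 18.6 kb upstream of Fos had 18.2 and stood at the 98.7 percentile of its list, where its fold over local background stood at the 68.1 percentile. Junb moved from the 1.05 to the 67.6 percentile. What set the local background at these places was not tested.

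A strong replicate 3 region lay beyond the Fos regions, at chr12:85524201-85525185, 50.8 kb downstream of the start. The authors assigned it to Gm32296, with a fold of 11.3 (interval 8.76 to 14.4) at the 99.4 percentile. Replicates 1 and 2 had no other region within 50 kb of Fos.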
